A study of Mus musculus with 15 samples.

Results

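The expression of 10 genes of the Polycomb repressive complexes was examined in single cells of the mouse prefrontal cortex (PFC): Ezh1, Ezh2, Eed, Suz12, Rbbp4, Rbbp7 and Jarid2 of Polycomb repressive complex PRC2, and Bmi1, Ring1 and Rnf2 of PRC1. The genes were chosen by name, with earlier results of these data known. Each of the 10 was found once among the 26145 genes of the deposited tables. The mice were male C57BL/6N, and each adult library held the PFC of 2 pooled animals. Of the 12 adult libraries, called P60 by the study and 8 to 10 weeks old by the labels, 2 belonged to each of 6 groups: intravenous self-administration of cocaine (libraries 1 and 4) or saline (2 and 3) up to the end of maintenance, cocaine (6 and 8) or saline (5 and 7) after 48 h of withdrawal, and cocaine (9 and 10) or saline (11 and 12) after 15 days of withdrawal. A further 3 libraries came from mice at P21, 3 weeks old, that received neither saline nor cocaine in self-administration. The methods state 4 mice at P21 and 2 mice pooled per replicate, which would not fill 3 such pools. Whether these 3 libraries are from separate animals is thus not known, and p-values measure the spread between libraries only. One label names the nucleus accumbens as tissue, while the titles and the methods name the PFC.

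Polycomb proteins keep genes silent by marking histones. PRC2 places methyl groups on lysine 27 of histone H3: Ezh1 or Ezh2 is the catalytic subunit, Eed and Suz12 are needed for its activity, Rbbp4 and Rbbp7 bind histones, and Jarid2 helps to bring the complex to chromatin. PRC1 places ubiquitin on histone H2A through the ligase Ring1 or its paralog Rnf2, and Bmi1 is a partner that raises the ligase activity. Ezh2 is typical of dividing cells, whereas Ezh1 is also made by cells that have stopped dividing, such as neurons.

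Each mRNA molecule was counted once by its molecular identifier (UMI), and the UMIs of all cells of a class were summed per library and scaled to the same total in every library and class (CPM, UMIs per 1e6), without mitochondrial and ribosomal protein genes. Values are comparable between samples for one gene; they carry no correction for differences between genes. The 15 libraries held 1055 to 4439 retained cells with 8375172 to 42892922 UMIs, and the authors' clusters were grouped by their names into 8 classes. In the P60 libraries the 4 marker genes of each class were highest in the class of that name, with 2 limits: the endothelial class held mural cell markers at a median of 6305 CPM beside 6420 CPM of endothelial markers and red blood cell markers at 60525 CPM, and newly formed oligodendrocytes held markers of mature oligodendrocytes at 3047 CPM beside 2983 CPM of their own. Any pair of libraries shared at most 27 barcodes among the retained cells, and at most 40 among all deposited barcodes. P21 library 1 stood apart from the other P21 libraries: the chi-square per degree of freedom of its summed counts was 45.9 against library 2 and 40.2 against library 3, compared with 3.68 between libraries 2 and 3 and 6.60 to 17.0 within P60 groups.

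In the genome build of the counts (NCBIM37), Ezh1 lies at chr11:101052429-101087777 and Ezh2 at chr6:47480273-47545340, both on the minus strand. Eed is at chr7:97103166-97129493 (minus), Suz12 at chr11:79806608-79847625 (plus), Rbbp4 at chr4:128984344-129012614 (minus), Rbbp7 at chrX:159198334-159217024 (plus), Jarid2 at chr13:44824843-45017012 (plus), Bmi1 at chr2:18598645-18608256 (plus), Ring1 at chr17:34157737-34161625 (minus) and Rnf2 at chr1:153316536-153347953 (minus). At their 3′ ends, where these libraries are read, Rbbp4 overlaps Sync by 1460 bases and Rbbp7 overlaps Txlng by 174 bases, each on the opposite strand, so counts of these 2 genes could include reads of a neighbour if strand was not used. No other transcript end matched the last 300 bases of any of the 10 genes at 90% identity or more.

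The promoters of Ezh1, Ezh2 and Suz12 are shown because Ezh1 and Ezh2 are the alternative catalytic subunits and differ in where they were found, and because the promoters of Ezh2 and Suz12 were the 2 that held a word of the E2F-type class, each a different one. The sequences are from RefSeq (GRCm38.p6), 250 bases before to 50 after the transcription start, 5′ to 3′ on the strand of the gene, with matches to CCAAT, to GGGCGG (the core of the Sp1 site) and to an E2F-type word (TTTGGCGC, TTTCCCGC, TTTCGCGC or TTTGCCGC) in capitals, searched on both strands.
Ezh1, chr11:101226414-101226713, minus strand: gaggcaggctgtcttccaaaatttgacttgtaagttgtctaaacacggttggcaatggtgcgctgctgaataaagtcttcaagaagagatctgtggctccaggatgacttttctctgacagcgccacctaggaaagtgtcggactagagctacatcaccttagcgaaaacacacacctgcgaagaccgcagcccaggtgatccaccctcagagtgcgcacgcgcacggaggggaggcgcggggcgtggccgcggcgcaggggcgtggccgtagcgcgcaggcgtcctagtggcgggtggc
Ezh2, chr6:47594981-47595280, minus strand: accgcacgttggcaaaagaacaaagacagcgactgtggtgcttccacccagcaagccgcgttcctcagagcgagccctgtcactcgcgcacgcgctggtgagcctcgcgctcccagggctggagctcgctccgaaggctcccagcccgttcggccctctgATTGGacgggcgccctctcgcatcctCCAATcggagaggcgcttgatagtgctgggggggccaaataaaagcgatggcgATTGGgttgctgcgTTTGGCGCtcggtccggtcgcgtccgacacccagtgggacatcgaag
Suz12, chr11:79992856-79993155, plus strand: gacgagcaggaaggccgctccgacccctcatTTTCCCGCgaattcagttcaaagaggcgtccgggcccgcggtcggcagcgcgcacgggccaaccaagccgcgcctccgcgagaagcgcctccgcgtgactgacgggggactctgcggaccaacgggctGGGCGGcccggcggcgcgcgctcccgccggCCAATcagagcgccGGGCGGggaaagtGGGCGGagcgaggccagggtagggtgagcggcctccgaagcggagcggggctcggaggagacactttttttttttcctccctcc
The Ezh2 promoter held 3 CCAAT words and 1 E2F-type word, Suz12 held 1 CCAAT, 3 GGGCGG and 1 E2F-type word, and the Ezh1 window held none of them. Over the 11 promoters of the 10 genes, Jarid2 having 2, CCAAT was found in 7, GGGCGG in 8 and an E2F-type word in 2. Among 32851 mouse promoters of the same length the shares were 37.4%, 35.7% and 2.26%, and the 10 genes' promoters were richer in GC, with a median of 66.3% against 52.7% for all. A match is a description of letters only.

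Ezh1 and Ezh2 had different orders over the cell classes at P60. Ezh1 was highest in endothelial cells with 52.2 ± 7.9 CPM (SD, n = 12 libraries), followed by inhibitory neurons with 39.6 ± 7.7 CPM, mature oligodendrocytes with 35.4 ± 8.5 CPM and excitatory neurons with 33.7 ± 1.3 CPM. Lower means were found in oligodendrocyte precursors (25.5 ± 8.5 CPM, n = 11), astrocytes (19.6 ± 10.4 CPM, n = 11), microglia (16.0 ± 10.5 CPM, n = 12) and newly formed oligodendrocytes (15.7 ± 13.5 CPM, n = 11). Of these neighbours in the order, endothelial cells and inhibitory neurons differed beyond their spread, with Ezh1 higher in endothelial cells in 10 of 12 libraries (adjusted p = 0.047, exact paired permutation over libraries, two-sided, adjusted over the 70 neighbour pairs of the 10 genes); the other 6 pairs did not pass.

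Ezh2 was highest in oligodendrocyte precursors with 28.1 ± 16.0 CPM (n = 11) and newly formed oligodendrocytes with 21.2 ± 10.4 CPM (n = 11). It reached 8.28 ± 5.36 CPM in mature oligodendrocytes, 6.77 ± 2.74 CPM in endothelial cells, 5.65 ± 2.49 CPM in astrocytes, 4.03 ± 2.67 CPM in microglia, 3.12 ± 3.18 CPM in inhibitory neurons and 2.14 ± 0.31 CPM in excitatory neurons. The drop from newly formed to mature oligodendrocytes was seen in 10 of 11 libraries and passed the same test (adjusted p = 0.0285), whereas the remaining 6 neighbour pairs did not. In excitatory neurons, where 14443 cells were sampled, Ezh1 had 6305 and Ezh2 411 UMIs, and in oligodendrocyte precursors the counts were 62 and 67.

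**Figure D1:**
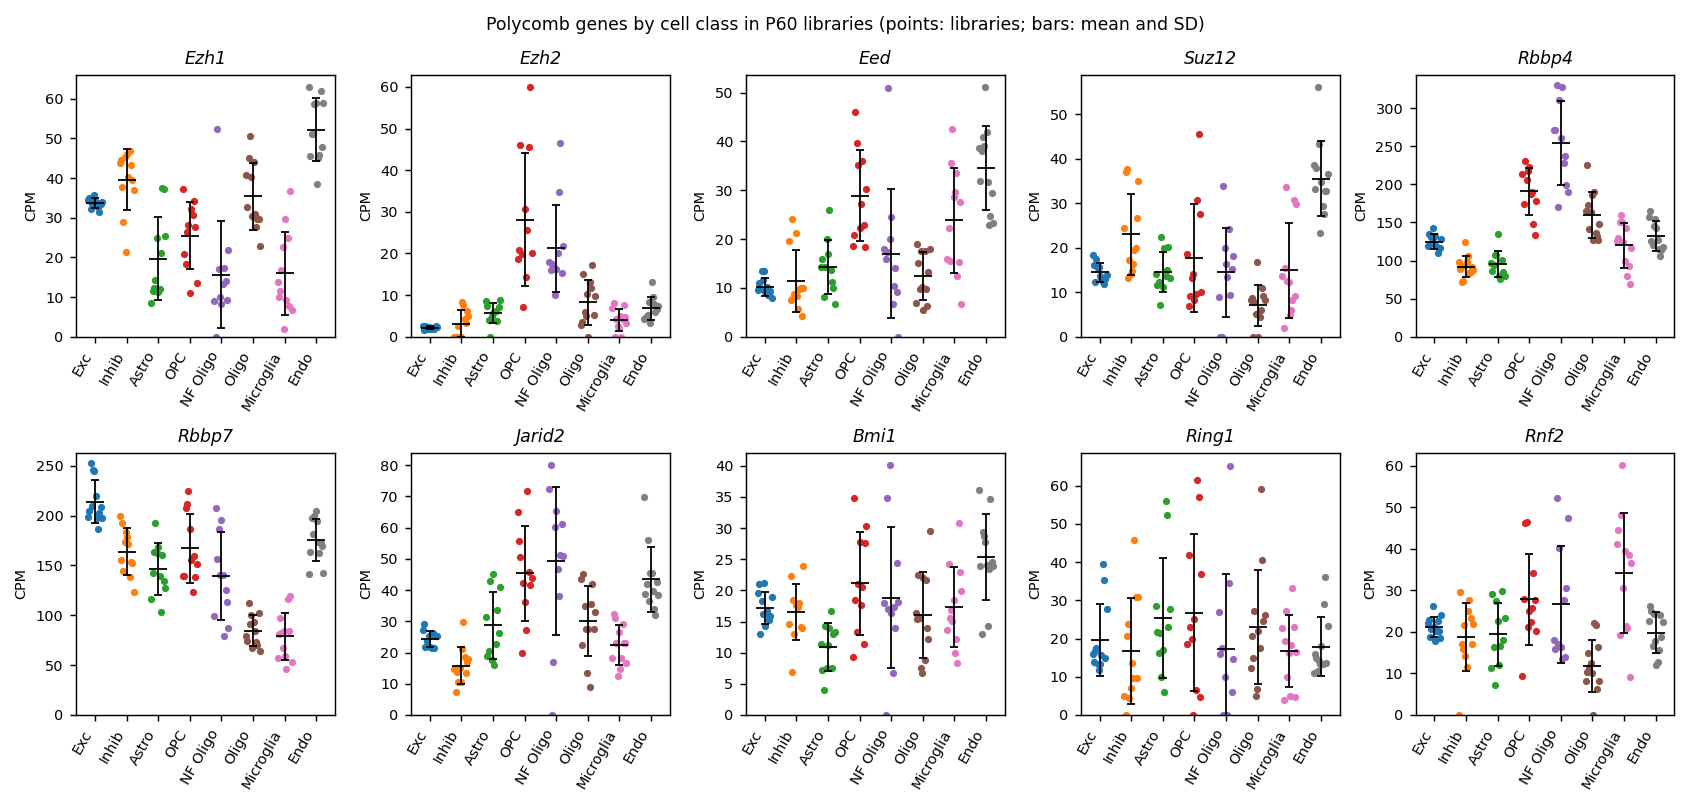
CPM of each of the 10 Polycomb genes (one panel per gene, linear axis from 0) in 8 cell classes of the P60 libraries, with a point for each library that held at least 10 cells of the class and bars for the mean and SD. Ezh1 was spread over all classes with its highest mean in endothelial cells (52.2 CPM), whereas Ezh2 was highest in oligodendrocyte precursors (28.1 CPM) and lowest in excitatory neurons (2.14 CPM).

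Within the oligodendrocyte precursors, 1 cluster carried much of the Ezh2 count. The deposited cluster OPC_1, with 53 cells drawn from all 12 P60 libraries, held 33 of the Ezh2 UMIs and reached 140 CPM, whereas the 714 cells of the other precursor clusters held 34 UMIs at 14.7 CPM. Its cell cycle genes summed to 4713 CPM, with the proliferation markers Mki67 at 284 CPM and Top2a at 1057 CPM. The next highest precursor cluster, OPC_6, had 517 CPM of cell cycle genes and 31.7 CPM of Ezh2. Ezh2 was not high only beside cell cycle genes. Newly formed oligodendrocytes at P21 had 34.6 CPM of Ezh2 (58 UMIs) with 117 CPM of cell cycle genes, 4 Mki67 UMIs and 0 Top2a UMIs. Without OPC_1, Ezh2 in precursors was 13.3 ± 9.3 CPM (n = 11), so that the first place of this class in the order was lost to newly formed oligodendrocytes. Since clusters were made by the authors from the same cells, these values are a description with no test.

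Other PRC2 genes in OPC_1 were also above the remaining precursors, as values: Eed at 51.0 against 26.3 CPM, Suz12 at 29.7 against 12.96 CPM, Rbbp4 at 284 against 183 CPM and Rbbp7 at 284 against 154 CPM. Ezh1, at 17.0 against 25.1 CPM, Jarid2, at 29.7 against 42.3 CPM, and Bmi1, at 12.7 against 22.9 CPM, were below. The PRC1 ligases Ring1, at 34.0 against 21.6 CPM, and Rnf2, at 42.5 against 25.1 CPM, were above, unlike Bmi1. These rest on few molecules, from 3 UMIs for Bmi1 to 67 for Rbbp4 in the 53 cells. The median depth of the cells was 4101 UMIs in OPC_1 and 3386 in the other precursors.

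**Figure D2:**
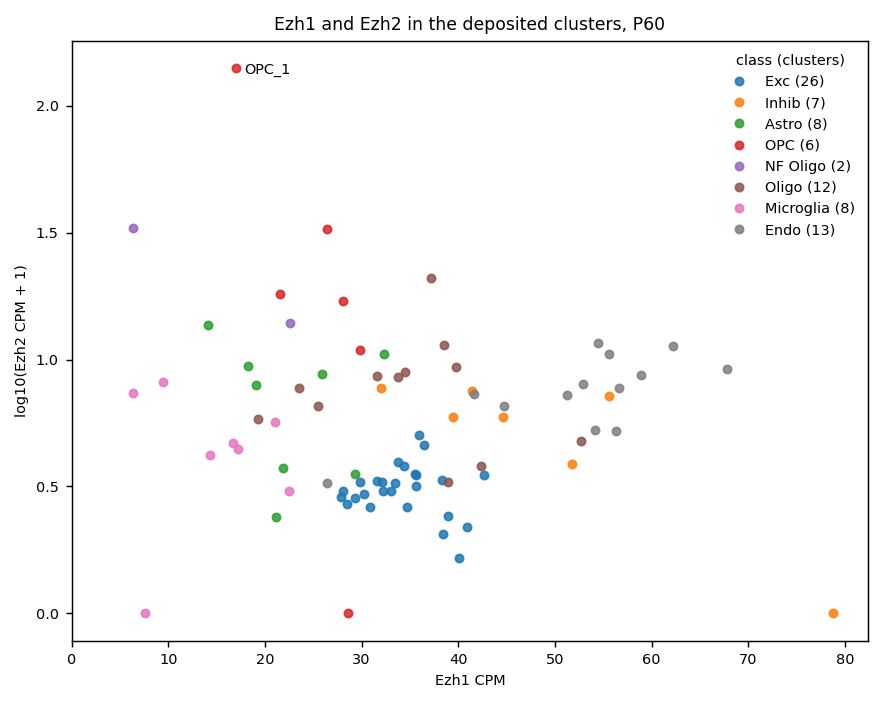
Ezh1 CPM (linear axis) against the base 10 logarithm of Ezh2 CPM + 1 for the 82 deposited clusters with at least 50 P60 cells, colored by class. OPC_1 stands at the top with 140 CPM of Ezh2, the excitatory clusters lie together at 27.9 to 42.7 CPM of Ezh1, and Inhib_10 is at the far right with 78.8 CPM.

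Excitatory clusters resembled each other in Ezh1. Over the 26 excitatory clusters Ezh1 ranged from 27.9 CPM (Exc_6) to 42.7 CPM (Exc_21), a ratio of 1.53, and Ezh2 from 0.654 CPM (Exc_3) to 4.06 CPM (Exc_19). Over 7 inhibitory clusters Ezh1 ranged from 32.1 CPM (Inhib_7) to 78.8 CPM (Inhib_10), the highest value of any cluster of at least 50 cells. Across all 82 such clusters Ezh1 and Ezh2 showed no relation in rank (Spearman's rho = −0.019, a description over clusters that share libraries and depth). Ezh2 rested on few UMIs in many of them, such as 3 in Exc_3 and 0 in Microglia_8, so its ranks carry counting error.

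Of 9321 genes compared over the same clusters, those most like Ezh1 were B230219D22Rik (rho = 0.78), Pdxk (0.77) and Smarcc2 (0.76). For Ezh2 they were Dpf2 (0.74), Vezf1 (0.69) and Fam82b (0.68), for Ring1 Lss (0.59), Fabp5 (0.56) and Gcat (0.55), and for Rnf2 Pabpc4 (0.71), Mid1 (0.66) and Chka (0.66). Each cluster was pooled over the P60 libraries, between which Ring1 differed, as given below. The part of this difference in the ranks of Ring1 was not tested.

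The core subunits Eed and Suz12 were both highest in endothelial cells. Eed was at 34.5 ± 8.6 CPM there, 28.9 ± 9.3 CPM in oligodendrocyte precursors (n = 11) and 23.8 ± 10.8 CPM in microglia, and lowest in excitatory neurons with 10.2 ± 1.9 CPM (n = 12), but no neighbours in its order differed. Suz12 was at 35.6 ± 8.4 CPM in endothelial cells and 23.0 ± 9.1 CPM in inhibitory neurons, a difference seen in 11 of 12 libraries (adjusted p = 0.0285, exact paired permutation). At the other end of its order, Suz12 was higher in excitatory neurons (14.4 ± 2.2 CPM) than in mature oligodendrocytes (7.09 ± 4.61 CPM) in 11 of 12 libraries (adjusted p = 0.0228, exact paired permutation).

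The histone-binding subunits Rbbp4 and Rbbp7, which also belong to other chromatin complexes, had orders of their own. Rbbp4 was highest along the oligodendrocyte lineage, with 254 ± 55 CPM in newly formed oligodendrocytes, 191 ± 31 CPM in precursors and 159 ± 30 CPM in mature oligodendrocytes, and lowest in inhibitory neurons with 91.7 ± 13.9 CPM. It passed between newly formed oligodendrocytes and precursors (higher in 10 of 11 libraries, adjusted p = 0.047) and between mature oligodendrocytes and endothelial cells (11 of 12 libraries, adjusted p = 0.0285, exact paired permutation). Rbbp7 instead was highest in excitatory neurons with 214 ± 22 CPM, above endothelial cells with 175 ± 21 CPM in 12 of 12 libraries (adjusted p = 0.0228, exact paired permutation). Mature oligodendrocytes, at 84.3 ± 15.6 CPM, lay below newly formed ones, at 139 ± 44 CPM, in 11 of 11 libraries (adjusted p = 0.0228, exact paired permutation).

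Jarid2 ranged from 49.3 ± 23.6 CPM in newly formed oligodendrocytes to 15.8 ± 5.8 CPM in inhibitory neurons, with no neighbours that differed. The PRC1 genes showed no such pair either. Bmi1 lay between 25.3 ± 6.9 CPM in endothelial cells and 10.9 ± 3.8 CPM in astrocytes, and Ring1 between 26.8 ± 20.5 CPM in precursors and 16.7 ± 9.4 CPM in microglia. Rnf2, the paralog of Ring1, was highest in microglia with 34.2 ± 14.4 CPM and lowest in mature oligodendrocytes with 11.9 ± 6.3 CPM. In all, 8 of the 70 neighbour pairs passed.

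The study followed adolescence by setting the P21 mice against adults, and here the adults were the 6 saline libraries. By the methods these adults had food restriction, food training, jugular catheter surgery and saline self-administration, none of which is described for P21 mice. Age and this handling cannot be told apart, and a change with age is meant in this sense throughout. A gene was called where its Benjamini-Hochberg adjusted p over all genes tested in a class was below 0.05 in edgeR's quasi-likelihood test and its change exceeded 1.5-fold; changes are log2 values of P60 over P21 with their standard errors. Of the 10 genes, 1 of 10 tested was called in excitatory neurons, where 19.3% of all genes were called, 1 of 9 in inhibitory neurons (14%), 1 of 10 in endothelial cells (12.7%) and 3 of 5 in mature oligodendrocytes (17.8%). None was called of 5 in astrocytes (1.11% of all genes), 3 in microglia (0.726%) and 3 in newly formed oligodendrocytes (1.94%), and oligodendrocyte precursors had too few P21 cells for a test. The shares in the neurons and endothelial cells were thus below those of all genes, and the list as a whole did not stand out there; in mature oligodendrocytes only 5 of the 10 genes passed the filter on low counts.

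Ezh1 rose in excitatory neurons. The paper already reports increased Ezh1 from these same cells, so this is not an independent finding. Ezh1 was at 23.1, 21.03 and 21.97 CPM in P21 libraries 1, 2 and 3, and in the saline P60 libraries at 32.1 (lowest), 34.1 (median) and 34.9 CPM (highest). The ages did not overlap, and the change was 0.68 ± 0.08 (SE, 1.60-fold, adjusted p = 6.0e-05, edgeR). Its call was kept in 20 of 20 alternative analyses, with changes from 0.65 to 0.72. The 6 cocaine P60 libraries, which the test did not use, lay between 31.3 and 35.8 CPM, all above the P21 libraries as well. Their mice had the same training and surgery as the saline mice.

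In inhibitory neurons Ezh1 was at 32.7, 27.9 and 22.7 CPM at P21 and between 37.0 and 46.2 CPM (median 42.1) at P60. The groups did not overlap, and its change of 0.55 ± 0.18 passed on the adjusted p (0.0423, edgeR) but not on the fold of 1.47. It passed both with the deposited classes (0.61, adjusted p = 0.0271, edgeR), without P21 library 1 (0.70, adjusted p = 0.0168), without P60 library 12 (0.61, adjusted p = 0.0418) and without both libraries (0.74, adjusted p = 0.0126). It stayed uncalled in 15 of 20 alternative analyses, with a change as low as 0.43. In endothelial cells, P21 at 35.7 to 37.0 CPM lay just below P60 at 38.4 to 59.0 CPM, with a change of 0.33 ± 0.15 (adjusted p = 0.146). In mature oligodendrocytes Ezh1 was at 19.5, 19.9 and 7.0 CPM at P21 and 23.0 to 45.0 CPM at P60, again without overlap, but its change of 0.88 ± 0.33 missed the threshold (adjusted p = 0.0637, edgeR). Ezh1 thus passed the full rule in 1 of these 4 classes, with inhibitory neurons on either side of it depending on the setting. Its ages did not overlap in any of the 4, but the share of all genes without overlap was not counted.

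Jarid2 fell in 3 classes. In endothelial cells it was at 59.7, 65.5 and 72.2 CPM at P21 and between 36.4 and 45.6 CPM (median 40.4) at P60, a change of −0.85 ± 0.13 (adjusted p = 0.000327, edgeR). In inhibitory neurons it was at 23.5, 30.7 and 38.3 CPM at P21 and 7.42 to 20.998 CPM (median 16.1) at P60, a change of −0.84 ± 0.23 (adjusted p = 0.015). Neither class showed overlap between the ages. In mature oligodendrocytes, at 57.5, 42.3 and 48.9 CPM against 22.4 to 45.0 CPM (median 27.6), the groups overlapped and the change was −0.91 ± 0.23 (adjusted p = 0.00911, edgeR).

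The call in inhibitory neurons was lost without P21 library 3 (−0.65, adjusted p = 0.121, edgeR) and with P21 libraries 2 and 3 summed (−0.78, adjusted p = 0.0529). That in mature oligodendrocytes was lost without P21 library 1 (−0.77, adjusted p = 0.0838). In excitatory neurons Jarid2 was at 30.9, 33.2 and 35.0 CPM at P21 and 21.7 to 29.1 CPM at P60, which did not overlap; the change of −0.39 ± 0.10 passed on the adjusted p (0.00574) and not on the fold.

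**Figure D3:**
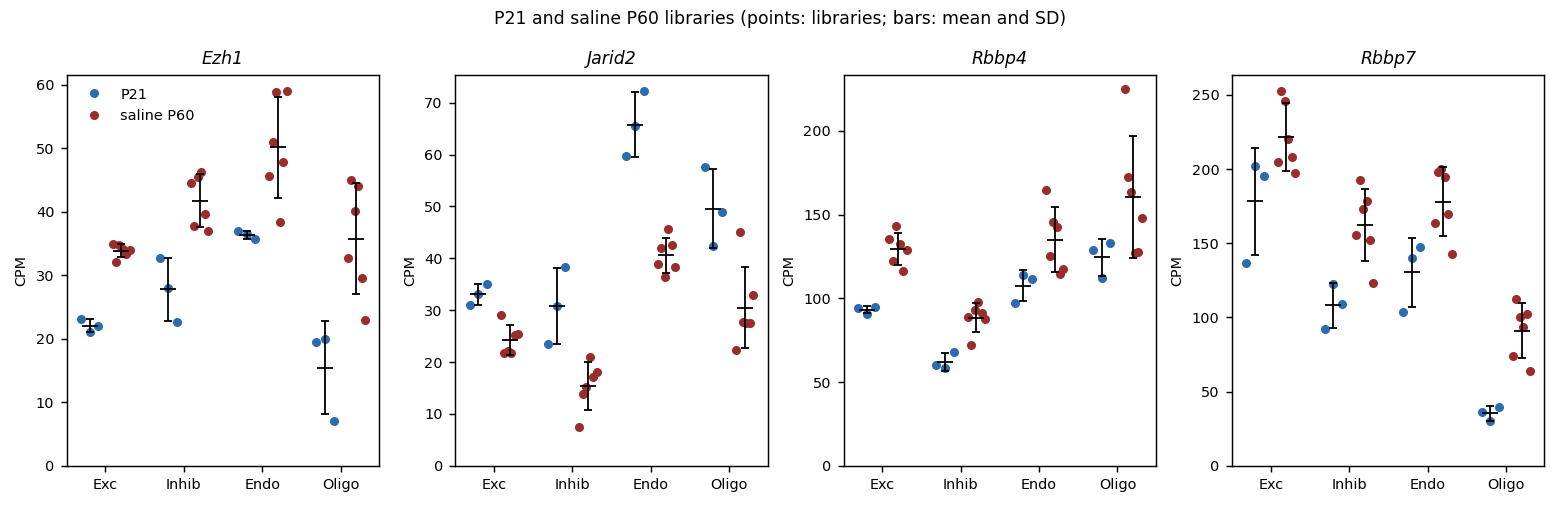
CPM of Ezh1, Jarid2, Rbbp4 and Rbbp7 (one panel each, linear axis from 0) in P21 and saline P60 libraries for 4 cell classes, with a point per library and bars for the mean and SD. Ezh1 was higher at P60 without overlap in all 4 classes, and Jarid2 was lower at P60 without overlap in excitatory and inhibitory neurons and endothelial cells. The share of all genes without overlap was not counted.

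Rbbp4 and Rbbp7 were higher at P60 in both neuronal classes by less than 1.5-fold. In excitatory neurons Rbbp4 was at 94.4, 90.7 and 94.8 CPM at P21 and 116 to 143 CPM (median 130) at P60, a change of 0.54 ± 0.09 (adjusted p = 0.00049, edgeR), without overlap. Rbbp7, at 137, 202 and 195 CPM against 197 to 253 CPM (median 214), overlapped and changed by 0.38 ± 0.14 (adjusted p = 0.0398). P21 library 1 had the lowest Rbbp7 value of the 3, and without it the change was 0.22 and no longer passed.

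In inhibitory neurons the changes were 0.52 ± 0.14 for Rbbp4 (adjusted p = 0.0161, edgeR) and 0.57 ± 0.16 for Rbbp7 (adjusted p = 0.0158). Rbbp7 was called in 6 of 20 alternative analyses (changes of 0.46 to 0.67 over all 20) and Rbbp4 in 2 (0.47 to 0.60). These counts include the rule without a fold cutoff. With the adjusted p alone, 4 of 10 genes passed in excitatory neurons, where 40.4% of all genes did, and 4 of 9 in inhibitory neurons, against 19%. In mature oligodendrocytes Rbbp7 passed the full rule: it was at 36.5, 29.9 and 39.6 CPM at P21 and 64.0 to 113 CPM (median 97.1) at P60, without overlap, a change of 1.22 ± 0.23 (2.33-fold, adjusted p = 0.00095).

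Ring1 was called lower in mature oligodendrocytes, but this rested on 1 library. It was at 72.0 CPM in P21 library 1, at 24.9 and 23.3 CPM in the other P21 libraries and at 5.02 to 26.3 CPM (median 21.3) at P60, so that the groups overlapped. The change of −1.29 ± 0.39 (adjusted p = 0.0287, edgeR) became −0.37 (adjusted p = 0.636) without P21 library 1. In the other classes that were tested, Ring1 changed by −0.54 ± 0.48 in astrocytes, −0.73 ± 0.38 in endothelial cells, −0.83 ± 0.35 in excitatory and −1.004 ± 0.54 in inhibitory neurons, none of which passed.

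The remaining genes did not pass in any class. In excitatory neurons, with the deepest counts, the changes were −0.06 ± 0.13 for Eed, −0.02 ± 0.10 for Suz12, 0.02 ± 0.13 for Bmi1, −0.12 ± 0.14 for Rnf2 and 0.13 ± 0.24 for Ezh2. Ezh2 had 115 UMIs at P21 and 198 at saline P60 in this class. In endothelial cells Rnf2 had a change of −0.58 ± 0.21 (adjusted p = 0.0761, edgeR) and Ezh2 of −0.47 ± 0.31, Bmi1 of −0.42 ± 0.20, Eed of 0.36 ± 0.25, Rbbp7 of 0.30 ± 0.15 and Suz12 of 0.02 ± 0.15. Ezh2 did not pass the filter on low counts in both oligodendrocyte classes: in newly formed oligodendrocytes it was at 30.7, 35.9 and 44.3 CPM at P21 and at 15.3 to 21.9 CPM in 5 saline libraries, without overlap and untested, from 58 and 15 UMIs. In mature oligodendrocytes it had 52 UMIs at P21 and 17 at saline P60.

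The share of Ezh1 among the UMIs of Ezh1 and Ezh2 was compared between the ages, since these subunits can take each other's place. The largest difference was in mature oligodendrocytes, from 48.5 ± 18.3% at P21 (n = 3) to 84.9 ± 10.9% at saline P60 (n = 6). It did not pass after adjustment over 7 classes (p = 0.0238, adjusted p = 0.167, exact two-sided permutation over libraries). All P21 shares lay below all saline P60 shares in this class, so the test could give no smaller p with these libraries. Excitatory neurons had 91.7 ± 2.1% and 94.1 ± 1.2%, inhibitory neurons 91.3 ± 0.5% and 93.2 ± 7.5%, and endothelial cells 79.6 ± 4.0% and 86.7 ± 6.2%. In newly formed oligodendrocytes Ezh2 gave most of the UMIs at both ages, the Ezh1 share being 13.9 ± 14.7% at P21 and 34.2 ± 20.5% at P60 (n = 5). Astrocytes had 52.3 ± 28.5% and 77.3 ± 15.3% (n = 5), from 17 UMIs at P21, and microglia 92.9% and 81.1%, from 8 UMIs at P21 in 2 libraries with any. Leaving out 1 library moved the difference from 25.0 points to between 11.4 and 39.8 in astrocytes, from 1.94 to between 0.590 and 3.67 in inhibitory neurons, from 20.2 to between 13.3 and 28.8 in newly formed oligodendrocytes, and from −11.7 to between −15.5 and −6.60 in microglia.

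Markers of other cell types also differed between the ages in these classes. In excitatory neurons the summed red blood cell markers lay at 1023 to 1668 CPM at P21 and 106 to 516 CPM at saline P60, and those of endothelial cells at 23.7 to 60.6 and 3.1 to 11.7 CPM. In endothelial cells red blood cell markers lay at 103935 to 134538 and 53282 to 88624 CPM, and mural markers at 4036 to 5127 and 5224 to 7497 CPM. In mature oligodendrocytes endothelial markers lay at 32.0 to 156 and 0 to 30.6 CPM and microglial markers at 25.6 to 144 and 6.9 to 19.4 CPM. In each class all 4 genes of the lists given here had UMIs at both ages, and their part in the changes of the Polycomb genes was not tested. The inhibitory class also differed in make-up between the ages. Cluster Inhib_2 had 341 of its 962 cells at P21 and 112 of 1191 over the 12 P60 libraries, and Inhib_7 had 76 and 392. The excitatory class differed as well. Cluster Exc_20 had 495 of its 5934 cells at P21 and 175 of 14443 over the 12 P60 libraries, and Exc_10 had 93 and 1022. The part of these shifts in the changes of the 2 neuronal classes was not tested, and changes within excitatory clusters are given below.

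Whether the changes differed between classes was tested in a fit with the library as a block. Between endothelial cells and excitatory neurons, 2 of the 10 genes passed at an adjusted p below 0.05, where 13.9% of all genes did. The fall of Jarid2 was larger in endothelial cells, with a difference of −0.48 ± 0.15 (adjusted p = 0.0399, edgeR), and the change of Rbbp4 was smaller there, by −0.40 ± 0.11 (adjusted p = 0.0266). Between inhibitory and excitatory neurons 0 of the 10 genes passed, 0 of them also at an unadjusted p under 0.05, against 10.9% of all genes by the adjusted p. The difference for Ezh1 was −0.13 ± 0.18 and for Jarid2 −0.42 ± 0.22, so the fall of Jarid2 in inhibitory neurons was not shown to exceed that in excitatory ones.

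The same comparison was made in each of 26 excitatory clusters, which gave 161 tests of the 10 genes. Of these, 15 were called higher at P60, where 4.54% of the tests of all genes were, and 8 lower, against 6.73%. The calls higher at P60 were of 3 genes. Ezh1 was called in 7 of 24 clusters and had a positive change in 22, Rbbp4 was called in 5 of 26 and Rbbp7 in 3 of 26, both with positive changes in all 26.

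For Ezh1 the called changes were in Exc_3 (0.92 ± 0.24), Exc_9 (0.96 ± 0.26), Exc_12 (0.79 ± 0.24), Exc_14 (0.77 ± 0.25), Exc_17 (1.66 ± 0.49), Exc_21 (0.88 ± 0.25) and Exc_22 (0.71 ± 0.27), and its change was slightly negative in Exc_7 (−0.07) and Exc_10. Rbbp4 was called in Exc_1, Exc_14, Exc_17, Exc_24 and Exc_25, with changes from 0.60 to 0.87, and Rbbp7 in Exc_20, Exc_21 and Exc_22, from 0.65 to 0.79. Jarid2 was called lower in Exc_10, Exc_14, Exc_19, Exc_22 and Exc_24, with changes from −0.96 to −0.65, and was negative in 23 of 25 clusters. Ring1 was called lower in Exc_23, Exc_24 and Exc_25 and was negative in all 21 clusters tested, with a median of −1.001. Without P21 library 1 the Ring1 change was −0.38 in Exc_23 (adjusted p = 0.704, edgeR) and −0.04 in Exc_25 (adjusted p = 0.925), Exc_24 did not pass the filter on low counts, and with all 12 P60 libraries none of the 3 calls remained.

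Clusters of one library are not independent, so the counts of like sign are a description. Rnf2 in 18 clusters, Bmi1 in 11, Suz12 in 7, Eed in 2 and Ezh2 in 1 gave no call. Of the 23 calls, 3 held whichever library was left out, those of Rbbp4 in Exc_14, Rbbp7 in Exc_22 and Jarid2 in Exc_19, and none of the 7 of Ezh1 did. The 23 calls became 11 without P21 library 1, 8 of them shared, and 15 without either of the saline 48 h libraries. With at least 30 cells per library and cluster they became 10.

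**Figure D4:**
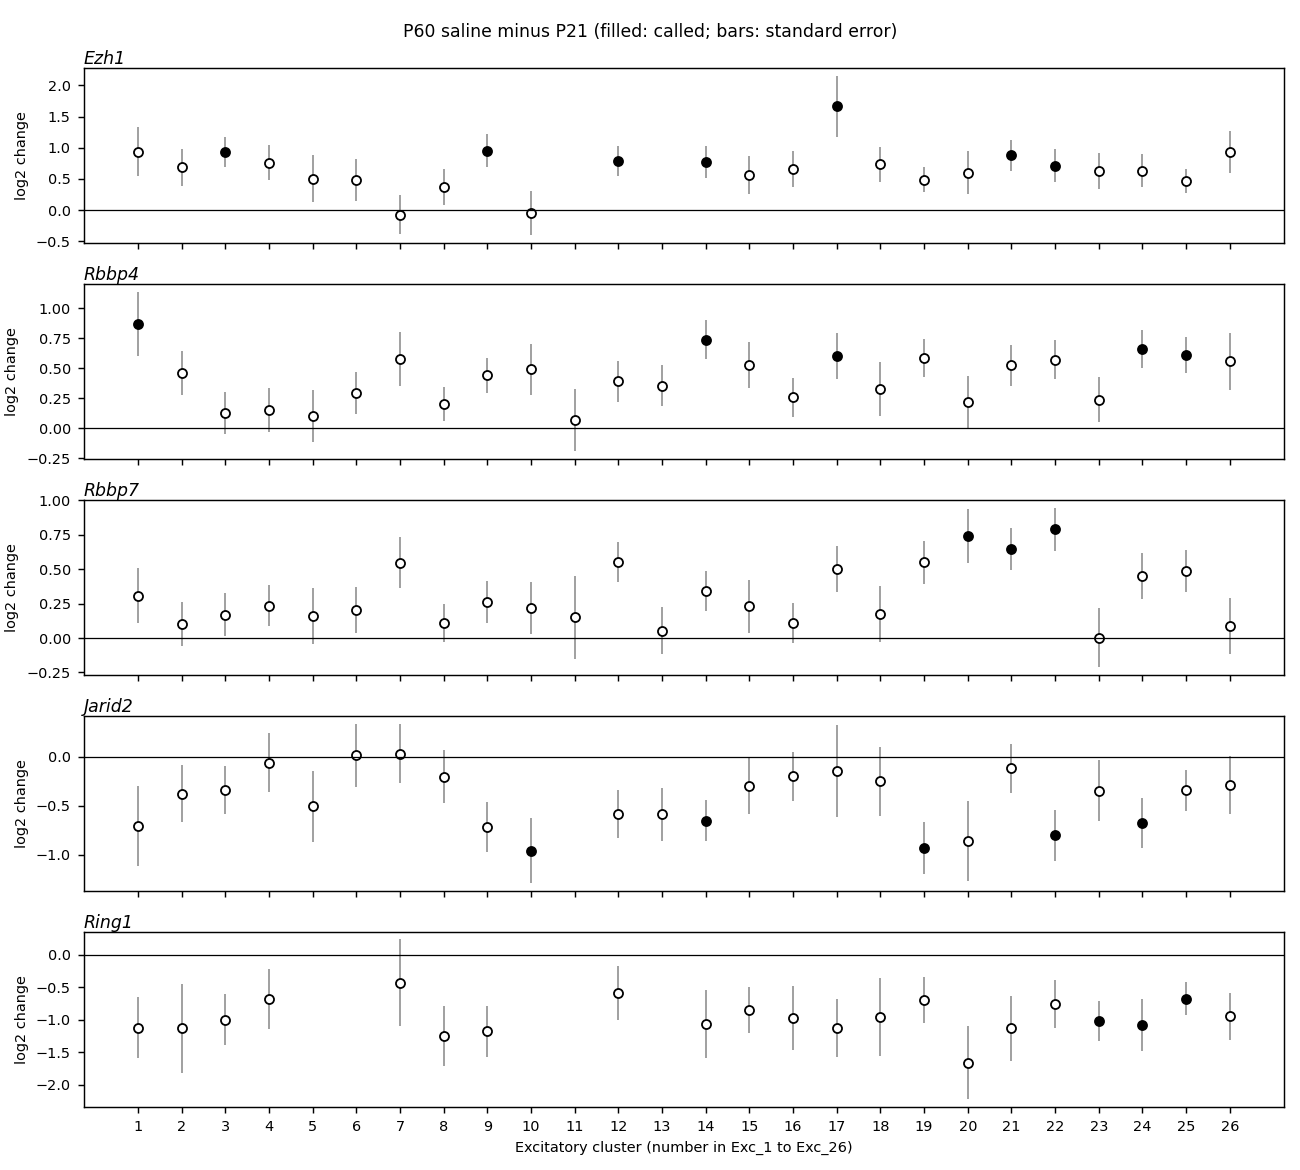
Log2 change of saline P60 over P21 with its standard error for Ezh1, Rbbp4, Rbbp7, Jarid2 and Ring1 (one panel each) in the excitatory clusters in which each was tested, with filled points for called changes. Rbbp4 and Rbbp7 lie above 0 in all 26 clusters, Ezh1 in 22 of 24, Jarid2 below 0 in 23 of 25 and Ring1 in 21 of 21.

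Other genes of the Polycomb system were examined from a list of 33: accessory PRC2 genes, PRC1 genes, the H2A deubiquitinase complex and the H3K27 demethylases. In excitatory neurons 6 of 30 tested were called with age (4 higher and 2 lower at P60), in endothelial cells 4 of 27 (2 and 2), in inhibitory neurons 1 of 27, in mature oligodendrocytes 3 of 11 (all lower) and in the other 3 classes 0. The background shares given above, from 12.7% to 19.3% in the first 3 classes and 17.8% in mature oligodendrocytes, put these counts near those of all genes in excitatory neurons and endothelial cells. Within the PRC1 genes, Cbx7, a chromobox subunit that binds methylated H3K27, rose in excitatory neurons, inhibitory neurons and endothelial cells. It was at 5.45 to 7.29 CPM at P21 and 12.7 to 15.3 CPM at P60 in excitatory neurons (1.24 ± 0.12, adjusted p = 1.66e-05, edgeR), and at 5.04 to 8.78 and 22.3 to 35.8 CPM in endothelial cells (1.89 ± 0.23, adjusted p = 4.8e-05), without overlap. The call in inhibitory neurons (1.20 ± 0.31) was lost without P21 library 2 (adjusted p = 0.0506, edgeR).

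The ring finger partners that can take the place of Bmi1 moved in both directions in excitatory neurons. Pcgf5 rose by 0.66 ± 0.11 and Pcgf2 by 0.70 ± 0.19, whereas Pcgf3 changed by −0.63 ± 0.12. Each of these calls ended when 1 P21 library was left out: Pcgf5 without library 1 (0.56, under 1.5-fold), Pcgf2 without library 2 (0.57) or 3 (0.60, adjusted p = 0.0519, edgeR), and Pcgf3 without library 2 (−0.58). The ages overlapped for Pcgf2. Pcgf5 also rose in endothelial cells, by 0.96 ± 0.23. Auts2, a partner of PRC1 known for neurodevelopment, was lower at P60 in endothelial cells, from 50.4 to 78.8 CPM at P21 to 18.0 to 29.4 CPM (−1.41 ± 0.17, adjusted p = 4.18e-05, edgeR), and in mature oligodendrocytes (−1.11 ± 0.32), where the call was lost without P21 library 1 (−0.73, adjusted p = 0.202). Yaf2 was lower in the same 2 classes (−0.68 ± 0.16 and −0.91 ± 0.21). In endothelial cells the ages overlapped for Yaf2, and its call was lost without P21 library 2 (adjusted p = 0.0633, edgeR) or 3 (adjusted p = 0.0582).

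Among PRC2 accessory genes, Phf1, which recruits PRC2 to chromatin, rose in excitatory neurons from 15.6, 3.2 and 3.7 CPM at P21 to 21.6 to 30.1 CPM at P60 (1.70 ± 0.46, adjusted p = 0.0181, edgeR). The change was 2.92 without P21 library 1 and 1.37 without library 2, the call was lost with P21 libraries 2 and 3 summed (adjusted p = 0.0502, edgeR), and DESeq2 gave no adjusted p. Aebp2 was lower in mature oligodendrocytes (−0.95 ± 0.32, adjusted p = 0.0448), a call lost in 15 of 20 alternative analyses. The demethylase Kdm6b was lower in excitatory neurons (−1.16 ± 0.34), but its P21 values were 18.1, 5.5 and 7.2 CPM and the change without P21 library 1 was −0.43 (adjusted p = 0.118, edgeR). None of the 33 genes was called with cocaine in any period.

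The effect of cocaine was compared with saline within each period in a fit of all 12 P60 libraries. Of the 54 tests of the 10 genes over 8 classes, 0 were called at maintenance, where 0.00992% of all tests were, 0 at 48 h of withdrawal (0.00827%), 0 at 15 days (0.339%) and 0 over the 3 periods (0.00496%) in edgeR. At an unadjusted p under 0.05 there were 2, 2, 6 and 1 (3.7%, 3.7%, 11.1% and 1.85% of the 54), against 4.47%, 4.53%, 5.38% and 5.74% of all tests. DESeq2 called 1 over the separate periods, Ring1 in excitatory neurons at 15 days. The lowest adjusted p values were 0.762, 0.876, 0.14 and 0.591.

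Ezh1, which separated the ages in excitatory neurons, was nearly level across the cocaine groups there. Cocaine libraries had 34.6 and 33.5 CPM at maintenance, 35.8 and 33.6 CPM at 48 h and 32.6 and 31.3 CPM at 15 days. Saline libraries had 34.9 and 32.1, 34.7 and 34.1, and 33.4 and 34.0 CPM at these periods. Its change over the periods was −0.01 ± 0.06, and those of Rbbp4 and Rbbp7 were −0.11 ± 0.06 and −0.10 ± 0.08 in the same neurons. For Ezh2 (0.02 ± 0.17), Eed (0.11 ± 0.12), Suz12 (0.07 ± 0.09), Jarid2 (0.01 ± 0.08), Bmi1 (0.12 ± 0.11) and Rnf2 (0.00 ± 0.11) the changes were close to their errors or smaller, and that of Ring1 was 0.33 ± 0.15 (adjusted p = 0.591, edgeR).

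Most of the unadjusted results at 15 days were of Ring1. In excitatory neurons it was at 39.5 and 35.4 CPM in the cocaine libraries and at 14.8 and 27.9 CPM in the saline libraries, without overlap, a change of 0.87 ± 0.23 (adjusted p = 0.14, edgeR). In this class and period 1 of the 10 genes lay wholly above saline and 3 wholly below, and the share of all genes without overlap was not counted. Changes of 1.08 ± 0.45 in inhibitory neurons, 0.82 ± 0.27 in endothelial cells, 0.95 ± 0.37 in mature oligodendrocytes and 1.11 ± 0.35 in astrocytes had unadjusted p values of 0.0314, 0.00568, 0.0138 and 0.00367 (edgeR). None passed the adjustment, nor did Suz12 in inhibitory neurons (−0.61 ± 0.29), the remaining one. A test in excitatory neurons of whether the effect of cocaine differed between periods gave an adjusted p of 0.962 for Ring1 (edgeR), and 0 of the 10 genes passed, as did 0% of all genes.

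**Figure D5:**
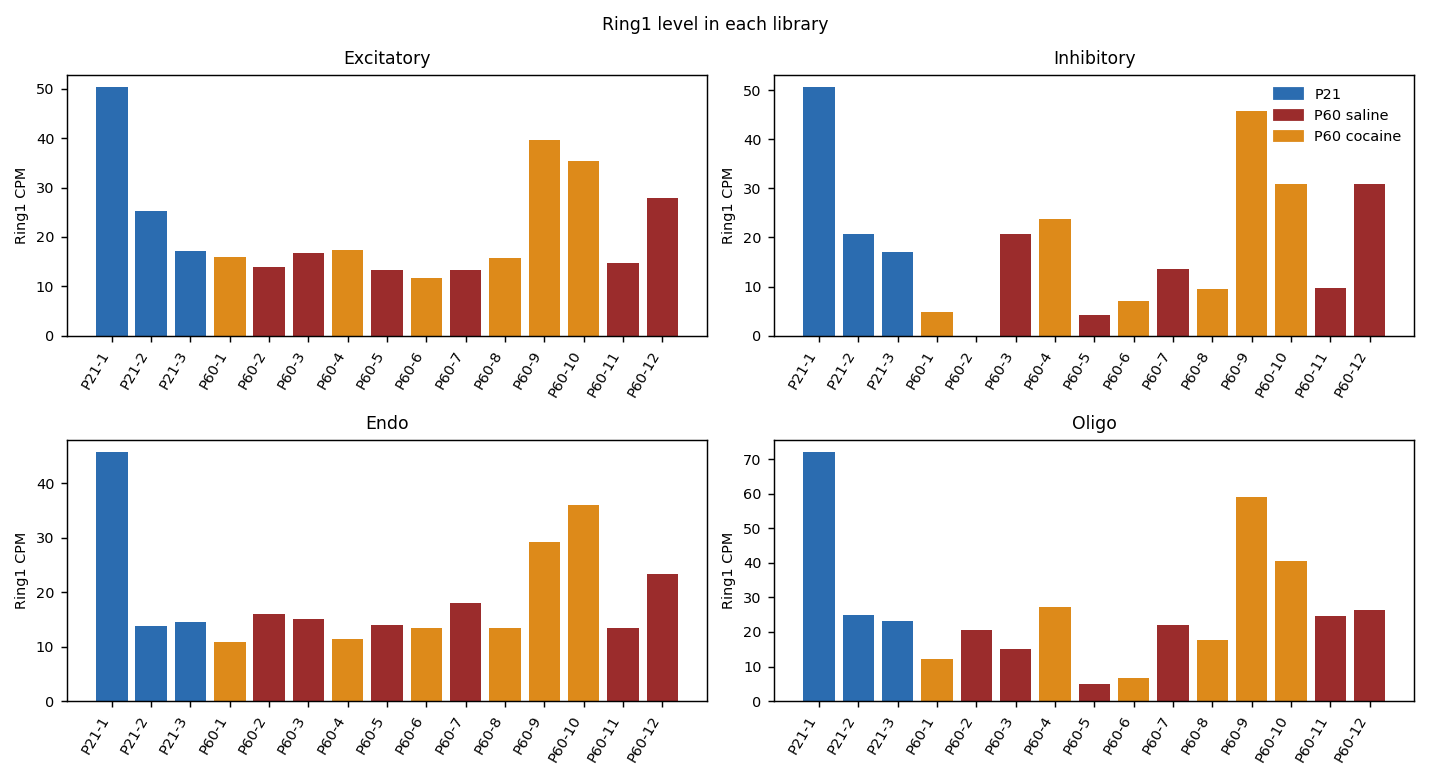
Ring1 CPM (bars from 0) in every library for 4 cell classes, colored by age and treatment. P21 library 1 and P60 libraries 9, 10 and 12 stand above the other libraries of their age in excitatory and inhibitory neurons and endothelial cells.

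The Ring1 level of single libraries, examined after these values were seen, cut across the treatment groups. P60 libraries 9 and 10 (cocaine) and 12 (saline) were at 27.9 to 39.5 CPM in excitatory neurons, whereas the other 9 P60 libraries were at 11.7 to 17.4 CPM. The same 3 libraries lay above all others in inhibitory neurons and endothelial cells and above the median of the others in all 8 classes. P21 library 1, at 50.4 CPM in excitatory neurons against 25.2 and 17.1 CPM, was above the other P21 libraries in 7 classes. Libraries 9, 10 and 12 were among the deepest, with 27704573 to 42853772 UMIs, but library 11, with 42892922 UMIs, was at 14.8 CPM, and the part of depth was not tested. Without saline library 12, the change at 15 days in excitatory neurons was 1.39 ± 0.19 (adjusted p = 0.000368, edgeR), and it was also called in inhibitory neurons (2.00 ± 0.48) and endothelial cells (1.32 ± 0.34); without saline library 11, in contrast, the changes were 0.47, 0.34 and 0.41 in these classes, and none was called. Each of these values rests on 1 saline library that is assumed to vary like the other groups.

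Outside Ring1, the lowest unadjusted p values of the cocaine tests were of Jarid2 and Bmi1 in endothelial cells at maintenance. Jarid2 was at 69.7 and 56.2 CPM in the cocaine libraries and at 38.8 and 42.0 CPM in the saline libraries, a change of 0.67 ± 0.23 (adjusted p = 1, edgeR). Bmi1 was at 36.1 and 29.4 CPM against 24.0 and 13.003 CPM, a change of 0.88 ± 0.34 (adjusted p = 1, edgeR). Both were higher in the cocaine libraries without overlap and neither passed. In this comparison of 2 against 2 libraries, 5 of the 10 genes lay wholly above saline and 2 wholly below. The share of all genes that lay so was not counted, so these counts are a description. Contrasts at maintenance in astrocytes, newly formed oligodendrocytes and oligodendrocyte precursors used a single saline library, since library 3 had fewer than 10 such cells.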

How the data were processed

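Libraries were made in droplets with 3′ counting. The authors aligned reads to mm9 (NCBIM37) with Cell Ranger (version 13.1 in the submitters' notes, while the methods give a different version number), clustered cells with Seurat 2.1.0, removed likely double droplets and cells above their mitochondrial limit, and deposited raw UMI counts per gene and cell without normalization. The deposited table of cells gives cluster, class and the mitochondrial share as a fraction. Classes were taken here from the cluster names, which differ from the deposited class in 0.133% of P60 and 4.36% of P21 cells. No doublet caller was run.

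UMIs were summed per library and class, leaving out 13 mitochondrial and 143 ribosomal protein genes and libraries with fewer than 10 cells of the class (python 3.11.15, R 4.3.3). edgeR 4.0.16 (TMM, filterByExpr, robust quasi-likelihood fits) was the main test; DESeq2 1.42.0, other scaling, filters, call rules, sets of libraries and leaving out each library were alternatives. The deposited classes, P21 libraries 2 and 3 summed, and P21 library 1 and P60 library 12 left out together were added after the data were seen. The tests were checked on simulated data. A library's 8375172 to 42892922 UMIs set the precision, and intervals cover counting error only where given. Gene positions are from GENCODE on NCBIM37, and copies were sought with minimap2 2.31-r1302.

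All 10 genes could be named in any comparison, and those not named in a class are covered by its counts. Other Polycomb genes were named where called in a class (at most 4 rises and 4 falls), and so were the 3 genes most like Ezh1, Ezh2, Ring1 and Rnf2 by Spearman's rho over clusters of at least 50 cells among genes with a mean of at least 10 CPM. The genes and lists were chosen with earlier results of these data known. Ezh1 is a gene whose increase between P21 and P60 the study reports from the same cells.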

Additional observations from a re-analysis of the deposited data

Results flagged for a closer look

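Of 45 groups of saline P60 libraries (1 gene in 1 class each), 3 held a library far from the others by Dixon's criterion, which chance alone meets in about 1 in 20 groups. Bmi1 in endothelial cells was at 13 CPM in P60 library 3 and at 23.9 to 28.7 CPM in the other saline libraries. Eed in inhibitory neurons was at 24.0 CPM in the same library, above 4.26 to 9.99 CPM elsewhere. Ring1 in excitatory neurons was at 27.9 CPM in P60 library 12, above 13.3 to 16.7 CPM in the other 5, and this library is the one whose omission moved the cocaine results at 15 days.

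Changes with age that differed between endothelial cells and excitatory neurons by the test of the difference itself were those of Jarid2 (−0.48, lower at P60 in both classes) and Rbbp4 (−0.40, a change of 0.18 in endothelial cells and 0.54 in excitatory neurons).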

How the results depend on the processing

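The 6 calls with age over classes became 12 without a fold cutoff, 8 without a filter on low counts and 1 under Bonferroni adjustment (Ezh1 in excitatory neurons). They became 6 to 10 when each library was left out, with 10 without saline 15 days replicate 2 (library 12). Calls of other Polycomb genes were 14 of 117, 3 under Bonferroni adjustment and 11 to 16 when each library was left out. The 23 calls in excitatory clusters became 10 with at least 30 cells and 11 without P21 library 1 and P60 library 12, and 11 to 26 when each library was left out, the lowest without P21 library 1. The 0 calls with cocaine by period became 1 in DESeq2 and 2 without a filter on low counts, and 0 to 3 when each library was left out, 3 without library 12; all were of Ring1 at 15 days. Over periods they stayed at 0. The 8 neighbour pairs of classes became 4 with at least 30 cells and 0 with the 6 saline libraries, where the exact test over at most 6 pairs is too coarse for the adjustment and says nothing of stability. The difference of the Ezh1 share in mature oligodendrocytes was 36.5 percentage points and 27.2 to 45.6 when each library was left out. Of the changes that were recomputed under the alternatives, which are the called ones, those of members that passed on the adjusted p in neurons and Ring1 with cocaine at 15 days, none reversed its sign. Except where fewer samples or tests explain a count, the cause was not tested. No pairing of libraries between ages or treatments was possible because replicate numbers come from the order of the samples and mark no shared animal, day or batch. Depth limits the less abundant genes: outside neurons and endothelial cells, Ezh2, Eed and Suz12 had 1 to 58 UMIs each per class at P21.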

Other observations

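Of the classical targets of Polycomb, the Hox and Cdkn2 genes, 40 were listed, and 32 of them had no UMI in excitatory neurons at P21 and 32 at saline P60, with a summed level of at most 1.12 CPM in any library. In endothelial cells 1 of them was high enough to test: Cdkn2b, an inhibitor of cell division, was at 144 to 176 CPM at P21 and at 28.0 to 64.3 CPM in the saline P60 libraries, without overlap (−2.06 ± 0.22, adjusted p = 7.82e-05, edgeR). It was called in 20 of 20 alternatives. The saline value of 64.3 CPM was of library 12. Cocaine libraries 9 and 10 were at 111 and 80.0 CPM, and the other cocaine libraries at 20.6 to 53.6 CPM. Libraries 9, 10 and 12 were also those high in Ring1. How many other genes were high in the same libraries was not counted, and a link between these genes was not tested.

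Of the 10 genes of the cell cycle list, 5 were tested in endothelial cells, where 12.7% of all genes were called, and only Cdk1 was called. It was at 8.78 to 17.0 CPM in endothelial cells at P21 and at 0 to 1.28 CPM at P60. Cdk1 had 29, 36 and 42 UMIs in the P21 libraries and at most 2 in a saline P60 library. It passed the filter on low counts through the P21 libraries alone, so its values are a description. In excitatory neurons 2 of 7 tested were called, where 19.3% of all genes were. Pcna, the sliding clamp of DNA replication, was higher at P60 (0.71 ± 0.15, adjusted p = 0.00283, edgeR), as was Mcm5 (0.63 ± 0.17, adjusted p = 0.0105). The Pcna call there ended without P21 library 1 (0.57, under 1.5-fold), and that of Mcm5 in 5 of 20 alternatives, among them without P21 library 3 (adjusted p = 0.0504, edgeR). The other 5 were not called: Mki67 (−0.74 ± 0.31, adjusted p = 0.0742, edgeR) and Mcm6 (−0.15 ± 0.25) had negative changes and Mcm2 (0.30 ± 0.20), Ccnb1 (0.23 ± 0.31) and Birc5 (0.15 ± 0.20) positive ones. Ezh2 in these neurons was at 1.32 to 2.53 CPM at P21 and 1.57 to 2.54 CPM at P60. Pcna, the gene of the list that was tested in inhibitory neurons, was also higher at P60 there (0.78 ± 0.15, adjusted p = 0.00157, edgeR). In that class 14% of all genes were called.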
